A study of Rattus norvegicus with 12 samples.

Results

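The 10 genes read here belong to the TGF-beta, BMP and activin system, in the anterior pituitary gland of male rats treated with the synthetic estrogen diethylstilbestrol (DES). They encode the ligands *Tgfb1*, *Tgfb2*, *Tgfb3*, *Bmp4* and *Inhbb*, the receptors *Tgfbr1*, *Tgfbr2* and *Tgfbr3*, and the extracellular antagonists *Nog* and *Fst*. Every probe set whose platform annotation gives exactly 1 of these symbols was taken, which gave 13 probe sets of 9 genes among the 31099 probe sets of the array. *Tgfbr2* has no probe set under its symbol in that annotation and was not analysed here. Of the 13 probe sets, 7 (of 6 genes) were bright enough to enter the tests across the array, and 6 were left out as dim, their mean of log2(signal + 16) being under that of a signal of 65.2 (the dim threshold).

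The 12 arrays come from 4 congenic lines with 3 arrays each, and all 12 are of anterior pituitary RNA. Each line carries alleles of the COP (Copenhagen) strain in 1 region of the ACI genome, within a locus for estrogen-induced pituitary growth. That region lies on chromosome 10 in Ept9, on chromosome 3 in Ept2, on chromosome 6 in Ept1, and on chromosome 3 in Ept6. All animals were male, carried a 5 mg implant of DES from 9 to 21 weeks of age (12 weeks), and received BrdU (50 mg/kg), which marks cells making DNA, 4 h before the end. No ACI, COP or sham-treated array belongs to the set, so the lines could be compared only with one another, 1 line with the average of the 3 others or 2 lines as a pair. A large difference in 1 line therefore shifts the values of the others. The labels do not give the ends of the introgressed segments. They conflict on replication, since the design text gives 3 biological replicates per line and the sample notes give 3 males per line but fewer independent replicates. The 3 arrays were treated as replicates, so p-values may in part measure technical spread, and the number of arrays limits the precision.

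Ligands of this family act as secreted dimers. They bring type I and type II receptors together, and the type I receptor kinase then phosphorylates Smad proteins, which enter the nucleus with Smad4 and regulate transcription. TGF-beta and activin signal mainly through Smad2 and Smad3, and BMPs through Smad1, Smad5 and Smad9, with the *Id* genes among the best known BMP targets. Noggin, the product of *Nog*, binds BMPs such as BMP4 and keeps them from their receptors, and follistatin, the product of *Fst*, does the same mainly for activins. In the pituitary, TGF-beta1 is known to restrain the growth of lactotrophs, the cells that make prolactin, while BMP4 has been found to promote it and activin to reduce prolactin production.

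The line differences below were carried by *Nog* and *Tgfb2*, and the promoters of both are shown to place these genes and the pathway's own motifs in them. The sequences are the 250 bases upstream of the annotated start in RefSeq (build GRCr8, which is the genome of the BN strain and not of ACI or COP), both on the minus strand, at chr10:74627502-74627751 for *Nog* and chr13:100792686-100792935 for *Tgfb2*. Capitals mark the Smad-binding letters GTCT (AGAC on the opposite strand) and the GC-rich BMP-response letters GGCGCC.
Nog: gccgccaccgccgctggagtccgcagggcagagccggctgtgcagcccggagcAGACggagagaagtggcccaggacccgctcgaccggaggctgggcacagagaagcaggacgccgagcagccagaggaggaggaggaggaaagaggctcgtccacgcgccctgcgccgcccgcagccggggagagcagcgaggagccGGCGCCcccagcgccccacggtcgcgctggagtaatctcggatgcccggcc
Tgfb2: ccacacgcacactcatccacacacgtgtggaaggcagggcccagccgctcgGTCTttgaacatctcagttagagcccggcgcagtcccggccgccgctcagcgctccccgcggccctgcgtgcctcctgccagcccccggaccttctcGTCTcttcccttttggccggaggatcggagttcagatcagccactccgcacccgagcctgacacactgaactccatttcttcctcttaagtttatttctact
The *Nog* window held 1 Smad-binding match and 1 GGCGCC and was 74% G and C, and the *Tgfb2* window held 2 Smad-binding matches, no GGCGCC, and was 61.6% G and C, beside a median of 51.2% over all promoters of this length. GTCT or AGAC stood in 84% of 33469 such promoters and in 5 of the 9 member genes with an entry (*Tgfb1*, *Tgfb2*, *Tgfb3*, *Bmp4* and *Nog*). GGCGCC, which reads the same on both strands and cannot overlap a match of GTCT on either strand, stood in 8.69% of them and in 4 of the 9 (*Nog*, *Tgfbr1*, *Tgfbr3* and *Inhbb*). Its letters are all G or C, and those 4 windows were 71.2% to 86.8% G and C, against 48.8% to 66.4% in the other members. The 4 of 9 is therefore not set against promoters of like composition. The estrogen receptor core letters GGTCA (or TGACC) stood in 35.4% and the TATA letters TATAAA (or TTTATA) in 12.9% of promoters, and neither was found in a window of the 9. These matches describe the letters only.

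Ept9 had the highest level of *Nog*, and this was the 1 difference among the 7 tested member probe sets that passed the test over the 4 lines. The second probe set of *Tgfb2* was lower in Ept2 than in the other lines, a call that most alternatives did not keep. No tested probe set of *Tgfb3*, *Inhbb*, *Tgfbr1* or *Tgfbr3* passed, and *Tgfb1*, *Bmp4* and *Fst* were dim. The test was limma's moderated F test on log2(signal + 16) over all 18607 probe sets kept, with Benjamini-Hochberg adjustment and a threshold of 0.05. It called 1 of the 7 member probe sets, beside 0.994% of all probe sets tested. In limma's contrast of 1 line with the other 3, Ept9 had 1 of 7 called higher (0.43% of all), Ept2 had 1 of 7 called lower (0.462% of all), and Ept1 and Ept6 had none (0.193% and 0.161% of all, in either direction). At an unadjusted p under 0.05 limma had 2 of 7 in Ept9 (11% of all probe sets), 4 in Ept2 (14.4%), 0 in Ept1 (7.49%) and 2 in Ept6 (10.7%). By the exact permutation test over the 15400 ways of dividing the 12 arrays into 4 lines, 3 of the 13 probe sets, dim ones included, had an unadjusted p under 0.05 (*Nog*, *Tgfb3* and 1 of *Tgfb2*). That test was not run over the array, where limma's F test gave 14.1% of all probe sets tested an unadjusted p under 0.05.

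**Figure D1:**
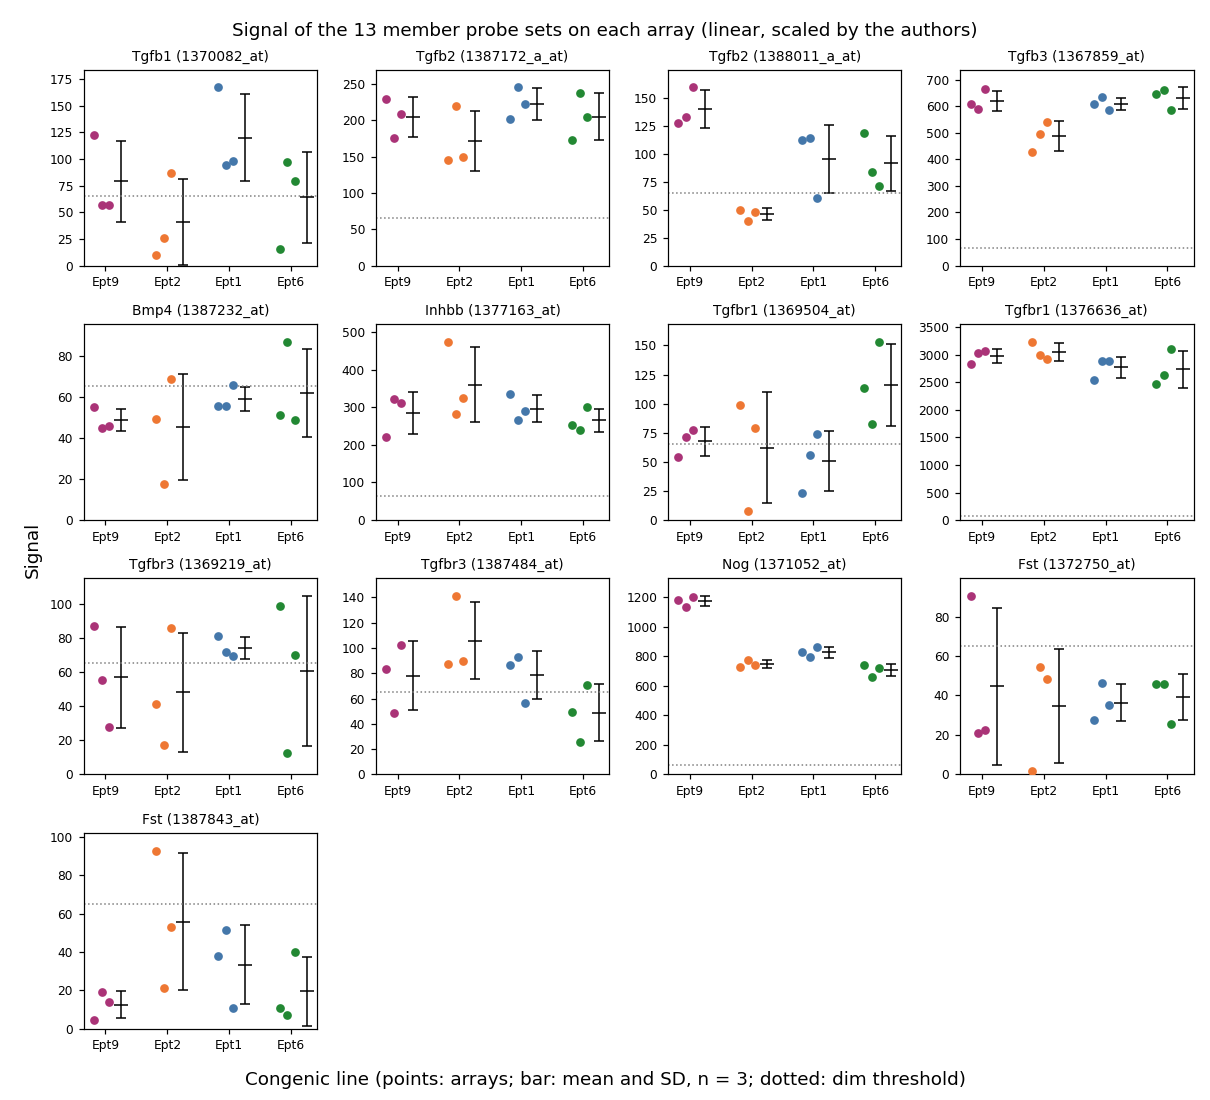
Signal on each of the 12 arrays for the 13 member probe sets, 1 panel each, with the lines Ept9, Ept2, Ept1 and Ept6 along the x axis and the linear scaled signal on the y axis from 0. Points are arrays, bars give the mean and SD (n = 3), and the dotted line is the dim threshold of 65.2. In the *Nog* panel the 3 Ept9 arrays (1134.1 to 1201.6) lie above the other 9 (662 to 861.4).

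Of the TGF-beta ligands, *Tgfb2* was the 1 with a call in a line, in 1 of its 2 probe sets. The probe set 1388011_a_at read 49.7, 39.8 and 48.3 in Ept2. The other lines read 112, 113.5 and 60.2 in Ept1, 118.5, 83.7 and 71.4 in Ept6, and 127.3, 132.3 and 159 in Ept9. All 3 Ept2 arrays thus lay below every other array and under the dim threshold, and all 3 Ept9 arrays lay above every other array. Ept2 averaged 45.93 ± 5.36 and the other 3 lines 108.7 together, a log2 difference of −0.97 (SE 0.175, 95% interval −1.35 to −0.58), or 0.511-fold on this scale, which understates the change of dim genes (adjusted p = 0.0389, limma). Ept9, at 139.5 ± 17 (SD, n = 3) against 77.46 in the other 3 lines, had a difference of 0.80 that did not pass (adjusted p = 0.0874, limma). The pair Ept2 over Ept9 differed by −1.33 (SE 0.214, adjusted p = 0.0186, limma). The F test among the lines missed the threshold (adjusted p = 0.0602), and the exact permutation p was 0.00792.

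The first *Tgfb2* probe set, 1387172_a_at, was above the dim threshold on all 12 arrays and its lines overlapped. It read 145.7, 219.4 and 149.8 in Ept2 (171.6 ± 41.4), against means of 222.8 ± 22 in Ept1, 205.2 ± 32.7 in Ept6 and 204.5 ± 27.5 in Ept9 (SD, n = 3 each). The Ept2 difference was −0.29 (SE 0.136, adjusted p = 0.372, limma). Over the 12 arrays the 2 probe sets correlated weakly (r = 0.28), although Ept2 had the lowest mean in both. The mean of their log2 values differed by −0.63 in Ept2 (SE 0.101, adjusted p = 0.0243) and passed the F test (adjusted p = 0.0459, limma). The call of 1388011_a_at in Ept2 was lost in 14 of 23 alternatives, among them no filter on dim probe sets (adjusted p = 0.115), the 3′ to 5′ difference of Gapdh as a covariate (0.537, with the log2 difference still −0.97) and leaving out any 1 of 10 arrays (0.055 to 0.121, lowest without Ept6 replicate 1 and highest without Ept2 replicate 3). It was kept without Ept1 replicate 3 and without Ept6 replicate 3, and without Ept1 replicate 3 the F test passed as well (adjusted p = 0.0223).

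*Tgfb3*, which in the rat pituitary has been tied to the growth response of lactotrophs to estrogen, was bright on all 12 arrays. It read 427.6, 495.1 and 540 in Ept2 (487.6 ± 56.6), while the 9 other arrays ran from 583.6 to 662.6. No Ept2 array overlapped with another line, and the 3 other lines were close together, at 629.5 ± 40.5 in Ept6, 619.7 ± 38.1 in Ept9 and 608.4 ± 23.5 in Ept1 (SD, n = 3 each). The Ept2 difference was −0.34 on the log2 scale (SE 0.081, 95% interval −0.52 to −0.16, 0.79-fold). It did not pass over all probe sets (adjusted p = 0.102, limma), and did so only when the filter was raised to the 60th percentile (adjusted p = 0.0489). *Tgfb3* lies on chromosome 6, which also holds the Ept1 segment, and the Ept1 difference was 0.08 (SE 0.081, adjusted p = 0.905, limma).

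Ept2 was thus below all other arrays in 2 of the 13 member probe sets, beside 1.68% of the probe sets tested, and Ept9 above all others in 2 of 13, beside 1.3%. A measure of RNA and the summed signals of some cell type marker lists also stood apart in Ept2. The Gapdh 3′ minus 5′ control difference, a measure of RNA integrity, was 0.379 ± 0.057 on the log2 scale in Ept2 (range 0.314 to 0.422), above the 9 other arrays (0.088 to 0.278, exact permutation p = 0.00455, the smallest this design can give, two-sided). With this difference as a covariate limma called no probe set of the array in Ept2, and 1604 of 18607 had an unadjusted p under 0.05 there. Since all 3 Ept2 arrays lay outside the range of the others in the covariate, this fit can hardly separate it from the line. The Ept2 log2 difference of *Tgfb2* 1388011_a_at was −0.97 with and without the covariate. That of *Tgfb3* was −0.40 with it and −0.34 without it. Of the 11 marker lists, 3 had summed signals in Ept2 that did not overlap with the other lines. The somatotroph list (2 of 2 genes tested) summed to 36130 to 40940 in Ept2, against 28070 to 34500 elsewhere. That sum is nearly all *Gh1* (median 33708.15), which differed by 0.25 in Ept2 (adjusted p = 0.164, limma). *Ghrhr* (median 160.05) went the other way, at −0.14 (adjusted p = 0.874, limma). The folliculostellate or stem cell list (5 of 6 tested) summed to 1622 to 2143 in Ept2, against 1195 to 1584. Limma called none of its genes in Ept2. Its brightest, *S100b* (median 603.6), differed by 0.54 (adjusted p = 0.0955, limma), and *Cdh1* went the other way, at −0.07 (adjusted p = 0.907, limma). The corticotroph or melanotroph list (2 of 4 tested) summed to 1171 to 1247 in Ept2, against 1464 to 2151. *Pcsk2*, a prohormone convertase of the last list and most of its sum (median 1514.45), was lower in Ept2 (log2 −0.64, adjusted p = 0.0495, limma). *Tbx19*, the other tested gene of that list (median 133.15), went the other way, at 0.13 (adjusted p = 0.842, limma). The defining gene of the list, *Pomc*, was dim (10.6 to 151.9). The part of any of these in the *Tgfb2* and *Tgfb3* values was not tested. In whole tissue, fewer cells of a type and less RNA per cell cannot be told apart.

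*Inhbb*, which encodes the beta B subunit shared by activin B and inhibin B, ran from 221.9 to 474.3 with a median of 295.85 and overlapped in all lines (F test adjusted p = 0.616, limma). The Ept2 arrays, at 474.3, 283.5 and 324.1, held the highest value. Their difference from the other lines was 0.31 (95% interval −0.04 to 0.66, adjusted p = 0.403, limma).

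*Tgfb1* and *Bmp4* were dim. *Tgfb1* ran from 10.4 to 166.9 with a median of 83.1 and was above the threshold on 7 of 12 arrays. Its 3 lowest readings were 10.4 and 25.8 in Ept2 and 15.7 in Ept6, and its spread within a line was as wide as 40.9 ± 40.2 in Ept2 (SD, n = 3). Its exact permutation p among the lines was 0.219. *Bmp4*, the ligand that noggin binds, ran from 17.5 to 86.7 with a median of 52.9 and was above the threshold on 3 of 12 arrays (exact permutation p = 0.651). Changes of these ligands smaller than such spreads were not detectable here.

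*Tgfbr1*, the type I receptor for TGF-beta, was bright and even. Probe set 1376636_at ran from 2468.2 to 3237.5 with a median of 2913.35, and its line means were 3054 in Ept2, 2979 in Ept9, 2776 in Ept1 and 2738 in Ept6. The test did not separate them (F test adjusted p = 0.684, limma), and the interval of the widest pair, Ept2 over Ept6, was −0.06 to 0.39 on the log2 scale. Its second probe set, 1369504_at, was dim (8.2 to 153.1, exact permutation p = 0.312). Its readings in Ept2, at 98.7, 8.2 and 79.4, spanned much of that range.

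*Tgfbr3* encodes betaglycan, a co-receptor that presents TGF-beta2 to the signalling receptors and also binds inhibin. Probe set 1387484_at stood near the dim threshold, at 87, 140.9 and 89.3 in Ept2, 86.2, 93.1 and 56.8 in Ept1, 83.6, 48.3 and 102.3 in Ept9, and 49.2, 25.9 and 71 in Ept6. Ept6 held the lowest value but overlapped with Ept1 and Ept9. Its difference from the other lines was −0.70 (SE 0.248, adjusted p = 0.372, limma), that of Ept2 0.56 (adjusted p = 0.335), and the F test gave an adjusted p of 0.383. The other probe set, 1369219_at, was dim (12.7 to 98.8, exact permutation p = 0.763) and did not vary with it over the 12 arrays (r = 0.04).

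*Fst* was dim in both probe sets, from 1.7 to 90.3 and from 4.8 to 92.9, each with 1 array above the threshold. The exact permutation test did not separate the lines (p = 0.937 and p = 0.18). The readings of the 2 probe sets ran in opposite directions over the 12 arrays (r = −0.6), so no level of *Fst* can be ordered by line.

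*Nog*, on chromosome 10 (probe set 1371052_at), was the member with the clearest line difference. It read 1178.6, 1134.1 and 1201.6 in Ept9, against 825.7, 791.4 and 861.4 in Ept1, 724.7, 776.7 and 741.1 in Ept2, and 738.5, 662 and 717 in Ept6. Every Ept9 array lay above all 9 others, and the coefficients of variation within a line ran from 2.93% in Ept9 to 5.59% in Ept6. Ept9 averaged 1171 ± 34.3 (SD, n = 3) and the other 3 lines 759.8 together. The log2 difference was 0.62 (SE 0.063, 95% interval 0.48 to 0.76), or 1.53-fold (adjusted p = 0.00209, limma). *Nog* ranked 30 of 18607 by the F test (F = 34.6, adjusted p = 0.00525). Its exact permutation p was 0.00013 among the lines and 0.00455 for Ept9 against the rest, two-sided. The second of these is the smallest p that 3 of 12 arrays allow.

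In the order of the *Nog* levels Ept9 came first, then Ept1 (826.2 ± 35), Ept2 (747.5 ± 26.6) and Ept6 (705.8 ± 39.5). Ept1, Ept2 and Ept6 were each below Ept9. The log2 differences were −0.50 for Ept1 over Ept9 (adjusted p = 0.0203), −0.64 for Ept2 over Ept9 (adjusted p = 0.00556) and −0.72 for Ept6 over Ept9 (adjusted p = 0.00328, limma, SE 0.077 for each pair). No pair of the 3 lower lines passed the threshold, with 0.14 for Ept1 over Ept2 (95% interval −0.03 to 0.31, adjusted p = 0.563), 0.22 for Ept1 over Ept6 (0.05 to 0.39, adjusted p = 0.574) and 0.08 for Ept2 over Ept6 (−0.09 to 0.25, adjusted p = 0.663, limma). The Ept1 arrays (791.4 to 861.4) lay above all those of Ept2 (up to 776.7) and Ept6 (up to 738.5). The share of all probe sets so separated between 2 lines was not counted. Over the 6 pairs, the members gave 4 calls, all lower than Ept9. They were *Nog* in Ept1 (1 of 7, beside 0.355% of all probe sets lower), *Nog* and *Tgfb2* in Ept2 (2 of 7, beside 0.511%) and *Nog* in Ept6 (1 of 7, beside 0.043%). The pairs Ept1 over Ept2, Ept1 over Ept6 and Ept2 over Ept6 had none, beside 0.102%, 0.215% and 0.656% of all (at an unadjusted p under 0.05, limma had 2, 1 and 3 of the 7, beside 10.4%, 6.48% and 15.5% of all).

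The *Nog* difference of Ept9 from the other 3 lines kept its call in all 23 alternatives run, at 0.59 to 0.66 on the log2 scale, with adjusted p from 0.000161 to 0.0237. The call of the nearest pair, Ept1 over Ept9, was lost in 9 of 23, which included no filter (adjusted p = 0.0871) and leaving out any 1 array of Ept1 or Ept9 (0.0656 to 0.096). That of Ept2 over Ept9 was lost with the Gapdh covariate alone (−0.55, adjusted p = 0.271, limma), and that of Ept6 over Ept9 in none of the 23. None of the 11 marker lists had sums in Ept9 that lay wholly above or wholly below those of the other lines, and limma called no marker gene in Ept9. The stroma list came near, at 3914 to 4129 in Ept9 against 1852 to 3978 elsewhere, its tested genes going in either direction. The red blood cell list summed to 18390 to 29670 in Ept9, against 13220 to 19690. The part of these in the *Nog* values was not tested. The posterior lobe list (*Avp*, *Oxt*, *Rax*) was dim in all 3 genes, with sums of 43.7 to 234.1, while *Prl*, the prolactin gene that defines lactotrophs, ran from 41979.1 to 51766.7.

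**Figure D2:**
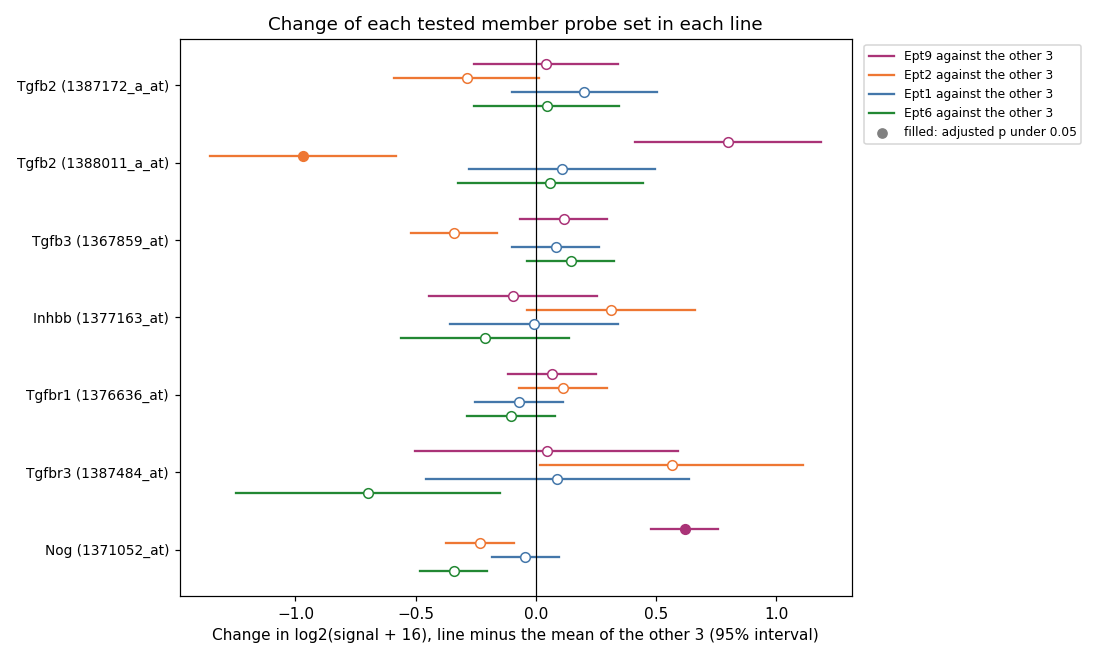
Difference of each line from the mean of the other 3 in log2(signal + 16), x axis, for the 7 tested member probe sets, y axis, with 95% intervals and filled points where the adjusted p was under 0.05. The filled points are *Nog* in Ept9 (0.62) and *Tgfb2* 1388011_a_at in Ept2 (−0.97).

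The 3 other genes named here followed *Nog* most closely over the 12 arrays, by Pearson correlation of log2(signal + 16) among 14474 tested probe sets with 1 gene symbol. These correlations describe arrays that share their lines, and no test was made of them. *Pfas*, an enzyme of purine synthesis on chromosome 10, had r = 0.907 (Spearman rho 0.727) and read 573, 626.6 and 685.4 in Ept9, against 326 to 463.8 in the other lines. *Mlec*, an endoplasmic reticulum lectin on chromosome 12, had r = 0.903 (rho 0.923) and read 671.9, 658.1 and 667.1 in Ept9, against 463.1 to 587.5. *Fn3k*, fructosamine 3 kinase on chromosome 10, had r = 0.897 (rho 0.559) and read 2971, 2864 and 3068 in Ept9, against 909.9 to 1399. In all 3 genes the Ept9 arrays lay above every other array, as in 1.3% of all probe sets tested. Because *Nog* itself stood apart in Ept9, choosing genes by their correlation with it favours such genes. Their Ept9 differences describe the choice and are not separate evidence. The Ept9 difference was 1.35 for *Fn3k* (adjusted p = 0.00209), 0.68 for *Pfas* (adjusted p = 0.0257) and 0.31 for *Mlec*, which missed the threshold (adjusted p = 0.0516, limma).

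**Figure D3:**
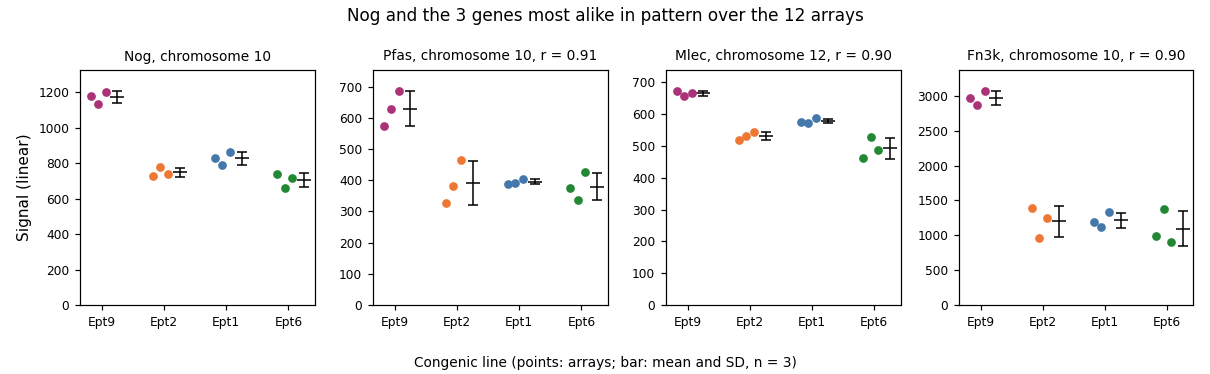
Linear signal (y axis, from 0) on each array of *Nog* and of *Pfas*, *Mlec* and *Fn3k*, with the lines along the x axis. Points are arrays and bars the mean and SD (n = 3). The 3 Ept9 arrays lie above the other 9 in all 4 panels, by the widest margin in *Fn3k*.

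*Nog* and the Ept9 segment are on the same chromosome, so the genes beside *Nog* were read in their order along it. Of the 10 tested genes on either side, limma called 0 of 20 in Ept9, beside 0.683% of all probe sets, and 5 of 20 had an unadjusted p under 0.05, beside 11% of all. The difference was positive for 8 of 20, beside 46.2% of all. *Dgke*, the nearest tested gene on the one side, differed by −0.25 (SE 0.117, adjusted p = 0.468) and *Pctp*, the nearest on the other, by 0.26 (SE 0.096, adjusted p = 0.36, limma). The nearest called genes were both lower in Ept9. They were *Srsf1*, 11 tested genes before *Nog* (−0.42, SE 0.068, adjusted p = 0.0259), which encodes a splicing factor, and *Nfe2l1*, 41 after it (−0.71, SE 0.082, adjusted p = 0.00457), which encodes a transcription factor. Of 895 tested genes on chromosome 10, 15 were called higher in Ept9 and 14 lower (3.24%), and *Nog* was number 4 by adjusted p. Whether *Nog* lies inside the COP segment cannot be told from the labels.

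**Figure D4:**
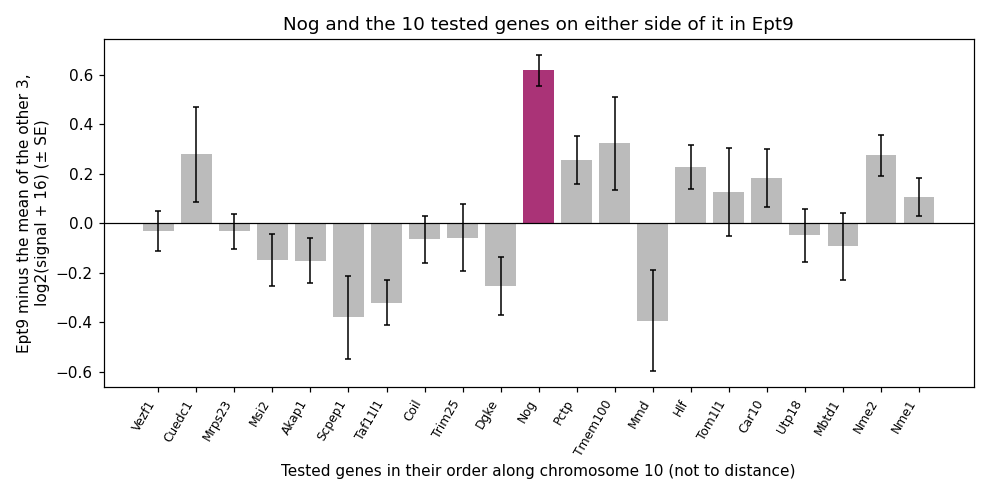
Difference of Ept9 from the mean of the other 3 lines in log2(signal + 16) (y axis, bars with SE) for *Nog* and the 10 tested genes on either side, in chromosomal order (x axis, not to distance). *Nog* (0.62, coloured) is the 1 called gene, and the 20 others run from −0.39 to 0.32.

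The rest of the pathway was read from a list of 69 genes, of which 62 had a probe set and 47 passed the filter, each gene by its brightest probe set. Limma's F test called 1 of the 47, *Id1*, beside 0.994% of all probe sets tested. Of the 47, 6 had an unadjusted p under 0.05. Over all 66 tested probe sets of these genes that share was 10.6%, beside 14.1% of all probe sets. None of the 47 was called in 1 line against the other 3, where 1.42% of all probe sets were called in at least 1 line. At an unadjusted p under 0.05 limma had 6 of 47 in Ept9 (12.8%, beside 11% of all), 3 in Ept2 (6.38%, beside 14.4%), 2 in Ept1 (4.26%, beside 7.49%) and 7 in Ept6 (14.9%, beside 10.7%). The median difference of the 47 was −0.08 in Ept9 (17 positive, median of all probe sets −0.01), 0.05 in Ept2 (29 positive, 0.01 over all), 0.01 in Ept1 (24 positive, 0.01) and 0.03 in Ept6 (27 positive, 0.01).

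*Id1*, on chromosome 3, encodes an inhibitor of basic helix-loop-helix factors that BMP signals induce. It read 525.2, 478.2 and 455.1 in Ept2 and 454.4, 396.9 and 479.2 in Ept6, against 395.2, 288.8 and 277 in Ept1 and 273.4, 241 and 292 in Ept9. The arrays of both chromosome 3 lines lay above those of Ept1 and Ept9, by a narrow margin (396.9 in Ept6 against 395.2 in Ept1). Ept9, highest in *Nog*, had the lowest mean of *Id1* (268.8). Ept6, lowest in *Nog*, averaged 443.5, against 486.2 in Ept2. *Id1* is on the chromosome that holds the segments of Ept2 and Ept6. A link of its level to these segments or to *Nog* was not tested. The F test gave an adjusted p of 0.0413, and Ept2 over Ept9 differed by 0.82 (SE 0.138, 1.77-fold, adjusted p = 0.0227, beside 0.344% of all probe sets called higher in this pair, limma). Against the other 3 lines, Ept9 had a difference of −0.58 (adjusted p = 0.0508) and Ept2 of 0.51 (adjusted p = 0.0772, limma), both short of the threshold. The F call of *Id1* was lost in 14 of 23 alternatives (adjusted p up to 0.127), among them leaving out any array other than Ept1 replicate 1.

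The other *Id* genes did not pass. *Id3* had its highest mean in Ept6, at 587, 407.7 and 545.5 against 321.4 to 456.5 in the other lines (Ept6 difference 0.43, adjusted p = 0.264, F test adjusted p = 0.29, limma). The brightest probe set of *Id4* averaged 305.2 in Ept2 and 194 in Ept9 (F test adjusted p = 0.222, limma). *Id2* was even, from 902.3 to 1446.3 with an F test adjusted p of 0.933.

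Of the remaining targets, *Junb*, an AP-1 subunit, read 1019.9, 1060.7 and 1225.9 in Ept9, against 591 to 1044.4 in the other lines (0.43, adjusted p = 0.162, limma). *Tsc22d1*, a TGF-beta-induced gene, was the brightest target, from 10807.4 to 13426.1 (F test adjusted p = 0.823). *Tgfbi*, a matrix protein named for its induction by TGF-beta, ran from 1330 to 2501.6 (adjusted p = 0.378). These genes, like *Klf10* (730.5 to 995.7, adjusted p = 0.881), overlapped between lines within the spread of the arrays or missed the threshold.

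No tested ligand, receptor or Smad outside the members was called. Among 7 of 15 listed ligands that passed the filter, *Bmp6* was the brightest (694 to 952.3, F test adjusted p = 0.778, limma), followed by *Gdf11* (236.8 to 492.6, 0.597). Among 7 of 11 receptors, *Acvr1*, a type I receptor for BMPs, ran from 1098.4 to 1508.7 (adjusted p = 0.572) and *Bmpr2* from 383.5 to 727.5 (0.971). *Smad4*, the shared Smad, ran from 1455.5 to 1836 (adjusted p = 0.839) and *Smad1* from 1516.2 to 1711 (0.787). The 2 inhibitory Smads were near the dim threshold, *Smad6* at 63.4 to 125.4 and *Smad7* at 57.2 to 177.6. In Ept9 the difference from the other lines was positive for 1 of 7 ligands, 2 of 7 receptors and 1 of 7 Smads, with medians of −0.12, −0.13 and −0.10, beside −0.01 over all probe sets, of which 46.2% were positive. For antagonists and binding proteins it was 6 of 11 (median 0.05), for regulators 0 of 5 (−0.04) and for targets 7 of 10 (0.05). Other lines leaned in some roles as well. In Ept1 the difference was positive for 2 of 7 ligands (median −0.13) and 1 of 10 targets, beside 53.2% of all probe sets. In Ept6 it was positive for 1 of 5 regulators but 5 of 7 ligands and 6 of 7 receptors, beside 52.3%.

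Among 11 of 17 listed antagonists and binding proteins, *Sostdc1*, a BMP antagonist on chromosome 6, came nearest to the threshold. It read 796.3, 758.9 and 619.5 in Ept9, against 720.9 to 1470.1 in the other lines (−0.59, SE 0.169, adjusted p = 0.2, F test adjusted p = 0.282, limma). It passed only without Ept2 replicate 1 (F test adjusted p = 0.0499), the array with the highest reading. *Twsg1*, which binds BMPs together with chordin, was brightest (2651.8 to 3656.8, adjusted p = 0.564), followed by the latent TGF-beta binding protein *Ltbp3* (1345.6 to 1676.8, 0.886). Of 5 intracellular regulators, *Tgif1*, a Smad corepressor, was lowest in Ept6 (mean 245.7, against 315.3 in the other lines, −0.34, adjusted p = 0.322, limma). *Skil*, another corepressor and the brightest of the 5, ran from 1450.2 to 2047.3, with differences from −0.009 to 0.015 in the 4 lines. *Smurf2*, the next brightest, ran from 680.4 to 905.6 (F test adjusted p = 0.622, limma).

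**Figure D5:**
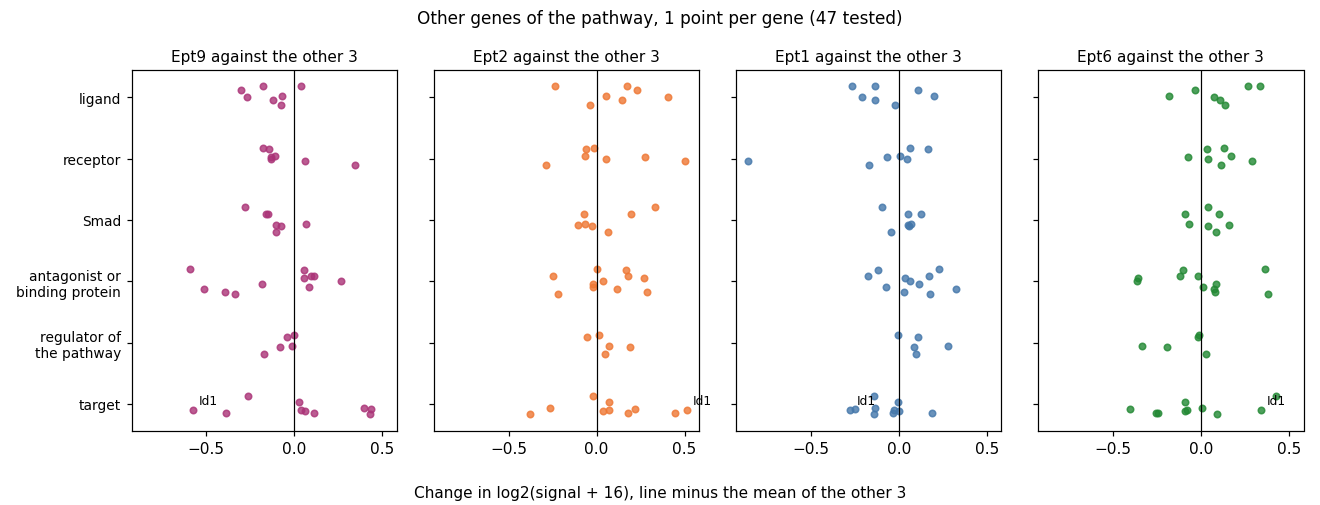
Difference of each line from the mean of the other 3 in log2(signal + 16) (x axis) for the 47 tested pathway genes outside the members, 1 point per gene, grouped by role (y axis, points spread vertically for view). *Id1* is labelled, at −0.58 in Ept9 and 0.51 in Ept2. None of the 47 passed in any of these 4 contrasts.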

How the data were processed

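The authors' table of linear array intensity values (signals) for 31099 probe sets was used as deposited. The authors had scaled the arrays to 1 trimmed mean (500.18 to 500.19 with 2% of values trimmed from either end). What software and background correction produced them is not given in the sources used here. Detection calls were not used. Correlations between arrays ran from 0.959 to 0.97, and 0 pairs of arrays held identical values. The deposited intensity was taken as log2(signal + 16), with no scaling added. Leaving out 57 control probe sets and 12435 dim ones (mean on this scale below its 40th percentile, equal to a signal of 65.2) kept 18607 for testing. On this scale the fold of a dim gene is understated.

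All tests across probe sets were made in limma 3.58.1 (R 4.3.3), on the 12 arrays with 1 mean per line: a moderated F test among the 4 lines, each line against the mean of the other 3, and the 6 pairs of lines, with Benjamini-Hochberg adjustment over all probe sets within each contrast and a threshold of 0.05. Single values were tested by exact two-sided permutation over the arrays (15400 partitions among the lines, 220 choices for 1 line). Probe sets of a gene were kept apart. The fits were tested on simulated data. In the platform annotation 20832 probe sets have 1 gene symbol, 436 have several and 9831 have none, and chromosomes, gene order and promoters come from RefSeq build GRCr8. In the order of genes along a chromosome, each gene is read by its brightest probe set.

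The members and the gene lists were chosen with earlier results of these data known. All member probe sets were named, with the called genes or the brightest 2 to 4 of each role of the pathway list, and the 3 genes most alike to *Nog*. *Id3*, *Id4*, *Klf10*, *Tgif1*, *Smad6*, *Smad7*, *Dgke*, *Pctp*, *Srsf1*, *Nfe2l1*, *Pcsk2*, *Tbx19*, *Gh1*, *Ghrhr*, *S100b* and *Cdh1* were named after their values were seen. Each fit was repeated with another pseudocount (1 or 64), quantile or median scaling, the filter dropped or raised to the 60th percentile, a block for replicate number, a mean-variance trend in eBayes, weights for array quality, a covariate for the 3′ to 5′ difference of Gapdh, the mean over a gene's probe sets, or 1 array left out. The filter on the mean of the linear signal, and the pseudocounts and scalings for the permutation tests, were added after the data had been seen.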

Additional observations from a re-analysis of the deposited data

How the results depend on the processing

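No result reversed its direction where it or its alternative was called. *Nog* kept its F call and its Ept9 call in all 23 alternatives. The count of members called by the F test stayed at 1 in 22 of 23 and was 2 without Ept1 replicate 3 (range 1 to 2 over the arrays left out). The calls in 1 line against the other 3 numbered 2. They became 1 with no filter, the replicate block, array quality weights or the Gapdh covariate, and 1 to 2 over the arrays left out. Wherever 1 call remained, the Ept2 call of *Tgfb2* had been lost. There were 3 calls with the eBayes trend and 3 with the filter at the 60th percentile. That filter left 4 member probe sets, none of *Tgfb2*, so its Ept2 call is not among those 3. The 4 calls over the pairs became 2 with no filter, 1 with the Gapdh covariate and 2 to 4 over the arrays left out, lowest without any 1 array of Ept9. The 1 pathway gene called, *Id1*, became 0 with no filter, the replicate block and the Gapdh covariate, and 0 to 1 over the arrays left out, where *Sostdc1* took its place without Ept2 replicate 1. The 3 members with a permutation p under 0.05 stayed 3 in all 4 scalings and pseudocounts. Over all probe sets the F calls numbered 185, and 419 with the eBayes trend, 282 with the filter raised to the 60th percentile, 84 with the replicate block, 53 without a filter, 37 with the Gapdh covariate and 74 to 142 over the arrays left out. Replicate numbers did not pair the arrays (same-number deviations correlated at −0.137 to 0.079 over 18 pairs, and 5 of 12 arrays correlated best with their own number), and the block also took the call of *Nog* for Ept1 over Ept9 (adjusted p = 0.0559, limma). The mean of 2 probe sets was dim for *Tgfbr3* and *Fst* and was tested only by permutation (exact p = 0.627 and 0.281). The cause of these differences was not tested.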
